A study of Mus musculus with 8 samples.

Results

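The complement component genes examined here are 8 of the 47937 mouse gene IDs counted in these libraries: C1qa, C1qb, C1qc, C3, C4b, Cfb, Cfp and Serping1. They are a list of symbols that was chosen by their read counts in these same libraries, so their values are given as a description, with no p. The counts come from GM-CSF-grown bone marrow-derived dendritic cells (BMDCs), a mixed culture that holds dendritic cells (DCs) and a macrophage-like fraction. There were 4 groups of 2 libraries: unstimulated WT, unstimulated 3xGrk-/-, LPS-stimulated WT and LPS-stimulated 3xGrk-/- BMDCs. All cells grew for 8 days in GM-CSF at 20 ng/ml, and the stimulated cells then received bacterial lipopolysaccharide (LPS) at 20 ng/ml for 24 h.

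The 3xGrk-/- cultures were started from bone marrow of adult C57BL6/J mice that carry Vav-iCre, floxed alleles of Grk2 and Grk6 (fl/fl) and no functional Grk3 (Grk3-/-). Grk2, Grk3 and Grk6 encode G protein-coupled receptor kinases, which switch off ligand-bound receptors. Vav-iCre is active in early blood cell precursors, so Grk2 and Grk6 are lost before DCs form, while Grk3 is missing from the germline. The WT controls were matched for age and sex and carried no Cre. The study's methods speak of RNA extraction in technical triplicates, and no source used here says that the libraries of a group came from separate cultures or mice. The errors and p-values below therefore measure the spread between libraries, which may be technical only.

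Complement is a cascade of plasma proteins that tags microbes and dying cells for uptake. In the classical pathway, C1q, a bundle of A, B and C chains, binds antibody or altered cell surfaces and activates the proteases C1r and C1s, which cut C4 and C2. In the alternative pathway, factor B joins C3b, the cut form of the central component C3, and properdin stabilises the resulting enzyme. Most complement proteins of plasma are made in the liver, but C1q comes largely from macrophages and immature DCs, and properdin from myeloid cells.

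The 3 genes of the C1q chains lie next to each other on chromosome 4, all on the minus strand and within 18675 bases of the GRCm38 genome. Going up in coordinate, C1qb spans 136880129 to 136886187, C1qc 136889804 to 136893065 and C1qa 136895917 to 136898803. On chromosome 17, also on the minus strand, C4b spans 34728380 to 34743882, Cfb 34856374 to 34862518 and C3 57203970 to 57228136. Serping1 lies on chromosome 2 (84765387 to 84775444) and Cfp on chromosome X (20925454 to 20931555), both on the minus strand.

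RefSeq promoter sequence for the GRCm38.p6 build was at hand for 4 of the 8 genes. It is shown because C1qb and C1qc, neighbours with a like pattern over the groups, can be set beside C3 and Cfp, whose patterns differ. Each run below covers 220 bases before and 30 bases after the start RefSeq annotates, on the minus strand, and capitals mark the motifs that were searched for. For C1qb and C1qc that start is not the outer end of the gene span given above. The windows are chr4:136886171-136886420 for C1qb, chr4:136892885-136893134 for C1qc, chr17:57228107-57228356 for C3 and chrX:20931526-20931775 for Cfp.
C1qb promoter: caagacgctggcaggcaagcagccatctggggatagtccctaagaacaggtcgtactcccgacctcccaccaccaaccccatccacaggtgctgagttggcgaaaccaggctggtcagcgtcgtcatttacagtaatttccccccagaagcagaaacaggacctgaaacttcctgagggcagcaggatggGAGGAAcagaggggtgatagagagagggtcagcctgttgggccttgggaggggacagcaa
C1qc promoter: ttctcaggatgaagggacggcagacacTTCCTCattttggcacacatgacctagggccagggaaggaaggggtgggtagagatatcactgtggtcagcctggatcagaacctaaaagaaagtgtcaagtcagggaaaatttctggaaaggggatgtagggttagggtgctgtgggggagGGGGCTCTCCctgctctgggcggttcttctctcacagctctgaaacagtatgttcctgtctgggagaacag
C3 promoter: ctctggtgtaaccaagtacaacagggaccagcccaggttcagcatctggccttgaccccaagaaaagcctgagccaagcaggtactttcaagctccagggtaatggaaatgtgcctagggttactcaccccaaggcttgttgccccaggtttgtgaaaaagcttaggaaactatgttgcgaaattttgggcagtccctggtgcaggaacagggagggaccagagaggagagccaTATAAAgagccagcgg
Cfp promoter: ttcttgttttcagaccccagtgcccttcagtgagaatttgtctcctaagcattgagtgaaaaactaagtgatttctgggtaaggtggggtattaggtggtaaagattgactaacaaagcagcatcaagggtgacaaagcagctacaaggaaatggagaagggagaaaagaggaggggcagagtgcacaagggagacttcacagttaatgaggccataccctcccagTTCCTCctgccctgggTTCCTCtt

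Both strands of the windows from 250 bases before to 50 bases after the start were searched for 5 motifs. The short PU.1 core GAGGAA, named after a factor of myeloid cells, was found in C1qb at −30 to −25 from the start. It was found on the other strand in C1qc at −193 to −188, and at 7 to 12 and 23 to 28 after the start in Cfp. This core is common, being present in 28.3% of the 32851 promoters of the same length. C1qc also held a match to the NF-kB motif at −41 to −32, which 8.46% of the promoters held. C3 held the TATA box TATAAA at 15 to 20 after its annotated start, a motif seen in 13.6% of promoters. The interferon motifs GAAANNGAA and TTCNNNGAA, held by 8.56% and 8.30% of promoters, had no match in the 4 windows. No match overlapped another. A match is a description of letters and not of a bound site.

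Library totals ran from 4713305 to 6933358 reads assigned to genes. LPS-stimulated 3xGrk-/- replicate 2 stood apart with 2.16% of its reads on Gm42418, a gene that overlaps ribosomal RNA, against 0.273% to 0.638% in the other libraries, and leaving Gm42418 out changed no member's call. Without that library the only member whose call changed was C1qb, in the LPS response of 3xGrk-/- cells. Between the libraries of that group the mean chi-square per gene was 9.02, against 1.59 to 3.07 in the other groups. The median per gene, over its expected value, was 1.30 in that group, against 1.92 in LPS-stimulated WT and 1.16 to 1.20 in the unstimulated groups. Levels are given as CPM (counts of a gene scaled to a common library total, with TMM factors from the 8 libraries), with the SD of 2 libraries. Reads on Grk2 and Grk6 were fewer in 3xGrk-/- libraries: Grk2 had 320.6 ± 0.526 CPM in WT and 148.7 ± 3.55 in 3xGrk-/- without LPS, and Grk6 84.4 ± 1.42 and 37.0 ± 0.0273. Grk3 kept 265.0 ± 3.01 CPM in unstimulated 3xGrk-/- cells against 339.1 ± 2.21 in WT, and its reads are no check of the germline deletion, since where the deleted part lies was not examined. With LPS, Grk2 had 3731 and 4760 counts in WT and 1093 and 1133 in 3xGrk-/- libraries. Macrophage markers were present in all groups: 11 of 12 were above 3 counts, and Cd163, which marks resident macrophages, had at most 1 count per library. Their summed level was 2083 to 2106 CPM in unstimulated WT, 8768 to 8815 in unstimulated 3xGrk-/-, 693.3 to 712.0 in LPS-stimulated WT and 7675 to 7781 in LPS-stimulated 3xGrk-/- libraries. In bulk RNA, fewer cells of a type and less RNA per cell cannot be told apart.

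The C1q chains were highest in unstimulated WT cells and lowest in LPS-stimulated WT cells, while 3xGrk-/- cells held a level between these with or without LPS. C1qa, the A chain, had 313 and 386 counts in unstimulated WT, 123 and 108 in unstimulated 3xGrk-/-, 13 and 15 in LPS-stimulated WT, and 89 and 98 in LPS-stimulated 3xGrk-/- libraries. C1qb, the B chain, had 829 and 1156, 285 and 234, 49 and 53, and 200 and 216 counts in the same order. C1qc, the C chain, had 490 and 671, 165 and 152, 22 and 33, and 140 and 168 counts. After scaling, the libraries of neighbouring groups did not overlap for C1qa and C1qb, whereas those of both 3xGrk-/- groups overlapped for C1qc.

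**Figure D1:**
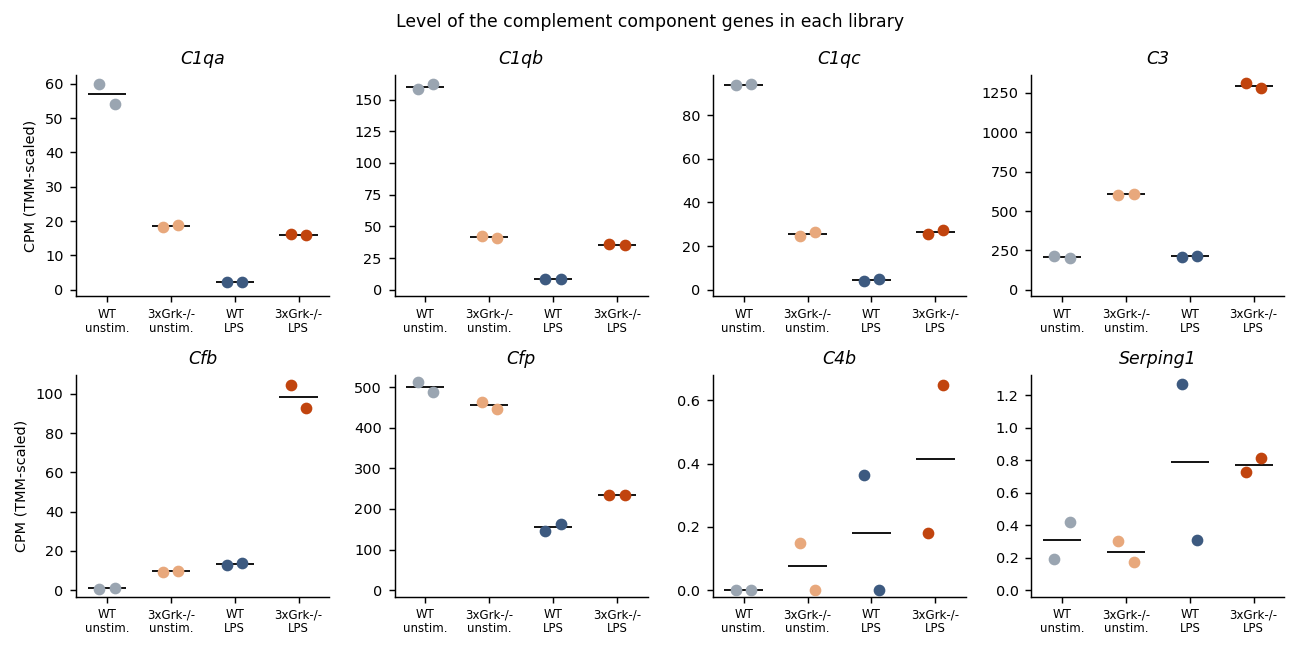
Level of each of the 8 genes (y axis, TMM-scaled CPM, linear and different for each gene) in the 2 libraries of each group (points; black line, their mean). C1qa, C1qb and C1qc are highest in unstimulated WT and lowest in LPS-stimulated WT cells, C3 and Cfb are highest in LPS-stimulated 3xGrk-/- cells, and C4b and Serping1 stay under 1.5 CPM.

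Summed over the 3 chains, C1q transcripts reached 311.0 ± 1.16 CPM in unstimulated WT and 85.7 ± 0.0478 in unstimulated 3xGrk-/- cells. With LPS the sum was 15.4 ± 0.273 CPM in WT and 78.1 ± 0.116 in 3xGrk-/- cells. The 2 libraries of each group thus lay close together for these genes. Beside these values, the summed macrophage markers were lower in unstimulated WT than in unstimulated 3xGrk-/- cells, the reverse of the order for C1q, whereas with LPS both were higher in 3xGrk-/- cells. Lyz2 made up most of the marker sum in all groups but LPS-stimulated WT, where it was 40.6% to 41.0%. Without it the order between the genotypes was the same. Without LPS the sum was then 751.8 to 777.2 CPM in WT and 1675 to 1746 in 3xGrk-/- libraries. With LPS it was 412.1 to 420.4 in WT and 3117 to 3168 in 3xGrk-/- libraries. The part of cell numbers in either difference was not tested.

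Relative to WT, 3xGrk-/- cells had lower C1q levels without LPS and higher levels with LPS. Without LPS the log2 fold change was −1.61 ± 0.110 (SE) for C1qa, −1.94 ± 0.0706 for C1qb and −1.88 ± 0.0903 for C1qc. With LPS it was 2.77 ± 0.244 for C1qa, 2.06 ± 0.150 for C1qb and 2.52 ± 0.188 for C1qc. The 3 chains had the same sign in each comparison.

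C1q reads were far fewer with LPS in WT cells and nearly as many with as without LPS in 3xGrk-/- cells. In WT the log2 fold change from unstimulated to LPS-stimulated cells was −4.59 ± 0.170 for C1qa, −4.23 ± 0.104 for C1qb and −4.35 ± 0.135 for C1qc, equal to levels 18.8-fold lower for C1qb and 20.4-fold lower for C1qc. In 3xGrk-/- cells it was −0.21 ± 0.140 for C1qa, −0.23 ± 0.0960 for C1qb and 0.05 ± 0.118 for C1qc. The difference between the responses, on the log2 scale, was 4.38 ± 0.245 for C1qa, 4.01 ± 0.152 for C1qb and 4.40 ± 0.194 for C1qc. Unstimulated and stimulated libraries stand in separate deposited tables, so LPS and any difference between the tables cannot be told apart.

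**Figure D2:**
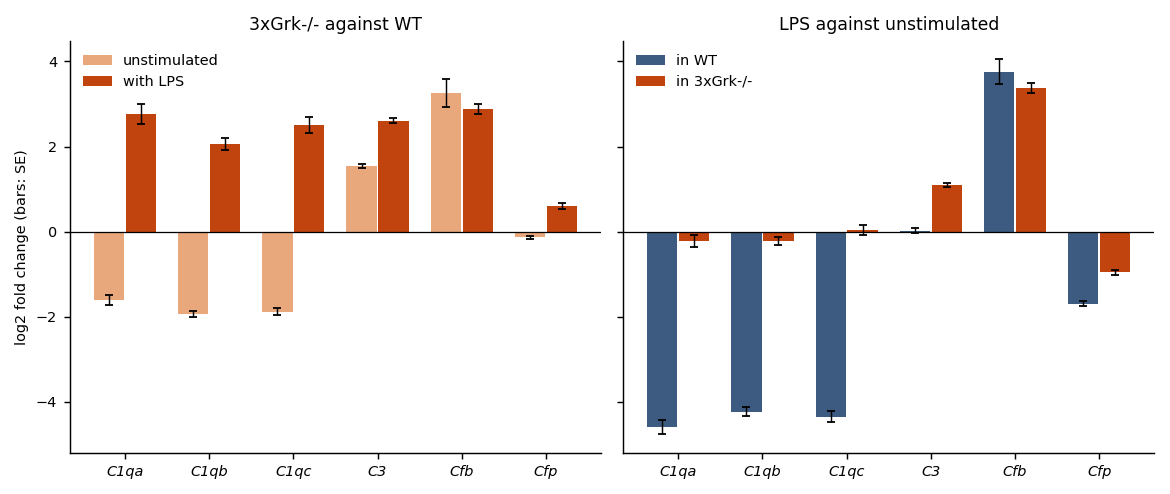
Log2 fold changes (y axis; bars, edgeR estimates; whiskers, SE) of the 6 complement genes with enough reads, for 3xGrk-/- against WT (left) and LPS-stimulated against unstimulated cells (right). On the left the bars of C1qa, C1qb, C1qc and Cfp change sign between the stimulations while those of C3 and Cfb do not. On the right the C1q bars reach below −4 in WT and stay near 0 in 3xGrk-/- cells.

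The shares of the chains changed less than their sum, but those of C1qa and C1qb differed between the genotypes. Per kilobase of exon, C1qb made up 57.9% to 65.3% of the chain reads in WT and 52.3% to 56.3% in 3xGrk-/- libraries. C1qa made up 18.0% to 22.9% in WT and 24.8% to 26.1% in 3xGrk-/- libraries, and C1qc 16.5% to 22.9% over the 8 libraries. The highest share of C1qb was in LPS-stimulated WT replicate 1, where only 84 reads fell on the 3 genes together. All libraries thus had C1qb as the most abundant chain per length.

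**Figure D3:**
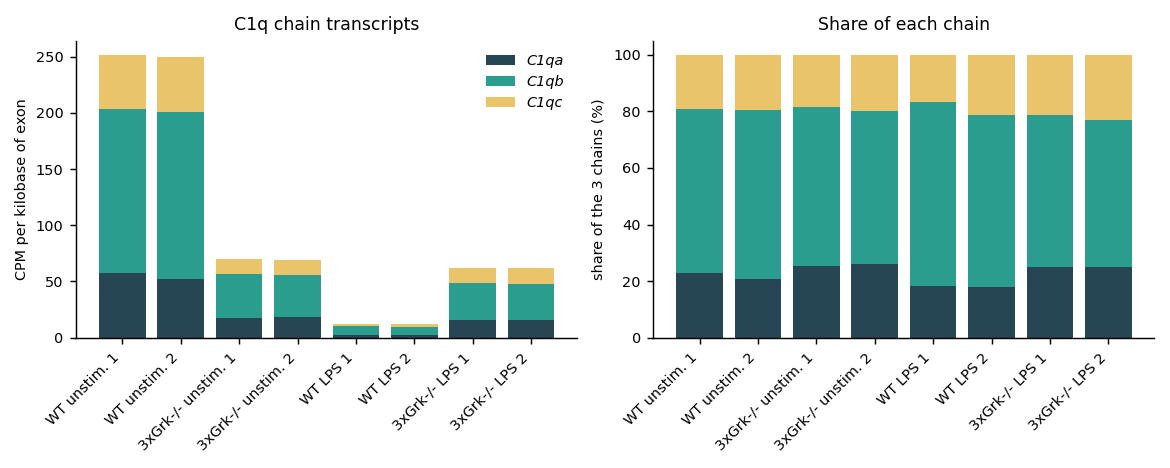
C1qa, C1qb and C1qc in each of the 8 libraries as stacked bars, in CPM per kilobase of exon (left) and as a share of the 3 chains in percent (right). The total falls from 252 in unstimulated WT replicate 1 to 12.5 in LPS-stimulated WT replicate 1, while C1qb keeps over 50% in every library.

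C3, the component on which all activation routes meet, was higher in 3xGrk-/- than in WT cells at both stimulations. It had 1119 and 1448 counts in unstimulated WT, 4022 and 3510 in unstimulated 3xGrk-/-, 1164 and 1376 in LPS-stimulated WT, and 7211 and 7897 in LPS-stimulated 3xGrk-/- libraries. The scaled libraries of the WT groups overlapped, at 208.4 ± 7.67 CPM without and 212.0 ± 1.20 with LPS, and those of the 3xGrk-/- groups lay above them at 605.6 ± 5.56 and 1296 ± 21.5. Relative to WT the log2 fold change was 1.54 ± 0.0427 without and 2.61 ± 0.0593 with LPS, or 2.91-fold and 6.11-fold. The LPS response was 0.03 ± 0.0522 in WT and 1.10 ± 0.0474 in 3xGrk-/- cells, a difference of 1.07 ± 0.0704 on the log2 scale. The WT value had no stable sign: scaled by library size alone it was −0.19.

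Cfb, which encodes the protease factor B, was the member with the lowest count in unstimulated WT among those that could be fitted. It had 4 and 8 counts in unstimulated WT, 63 and 55 in unstimulated 3xGrk-/-, 70 and 90 in LPS-stimulated WT, and 575 and 572 in LPS-stimulated 3xGrk-/- libraries. Each group lay apart from the next, with means of 0.943 ± 0.252, 9.49 ± 0.0895, 13.3 ± 0.865 and 98.6 ± 8.33 CPM. Among the 2 unstimulated groups, it was kept in the fit only through its reads in 3xGrk-/- cells. The log2 fold change against WT was 3.26 ± 0.332 without and 2.88 ± 0.118 with LPS. LPS went with a rise in both genotypes, of 3.76 ± 0.292 in WT and 3.37 ± 0.119 in 3xGrk-/- cells, and the responses differed by −0.38 ± 0.420, less than its error.

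The annotation limits what the Cfb counts mean. Gm20547, a read-through transcript of Cfb and its neighbour C2 on the same strand, shares 2246 of the 2825 exon bases of Cfb and had 0 counts in every library. Reads in shared exons may have been left uncounted, so that the counts of Cfb could come from the remaining 579 bases, and its level per length is uncertain. C2, the classical pathway counterpart of factor B, shares 1656 of its 3872 exon bases with the same transcript and had between 1 and 6 counts per library.

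Cfp encodes properdin, which holds the alternative pathway enzyme together. It had 2683 and 3491 counts in unstimulated WT, 3098 and 2577 in unstimulated 3xGrk-/-, 806 and 1058 in LPS-stimulated WT, and 1291 and 1446 in LPS-stimulated 3xGrk-/- libraries. Its scaled levels were 500.9 ± 16.5, 455.5 ± 11.3, 155.0 ± 12.3 and 234.6 ± 0.166 CPM, with no overlap between groups. The genotype difference was small without LPS, at −0.14 ± 0.0395 on the log2 scale, and 0.60 ± 0.0686 with LPS. LPS went with a lower level in both genotypes, by −1.69 ± 0.0582 in WT and −0.96 ± 0.0563 in 3xGrk-/- cells, a difference between responses of 0.73 ± 0.0806. Without WT replicate 1 the value without LPS was −0.10, and without 3xGrk-/- replicate 2 it was −0.11.

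C4b and Serping1 were barely detected. C4b, the classical pathway component cut by C1s, had 0 and 0 counts in unstimulated WT, 1 and 0 in unstimulated 3xGrk-/-, 2 and 0 in LPS-stimulated WT, and 1 and 4 in LPS-stimulated 3xGrk-/- libraries. A count of 0 allows up to 3 counts, or 0.497 CPM in unstimulated WT. Serping1, the inhibitor of C1r and C1s, had 1 and 3, 2 and 1, 7 and 2, and 4 and 5 counts in the same order of groups. Neither gene had enough reads to enter a fit, so no difference between groups was tested. C4b has a near-identical copy, C4a, 65209 bases away on chromosome 17, so reads could be split between both. C4a had 18 to 54 counts per library.

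Compared per kilobase of exon, the order of the genes differed between the groups. In unstimulated WT cells Cfp led with 288.6 CPM per kilobase, followed by C1qb with 147.2, C1qa with 54.8, C1qc with 48.6 and C3 with 40.5. In LPS-stimulated 3xGrk-/- cells C3 led with 251.9, followed by Cfp with 135.1 and C1qb with 32.8. Cfb is left out of this order, because the length behind its reads is uncertain. C3 thus stood below each C1q chain in the first of these groups and above each in the second.

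Of the 8 genes, 6 passed the filter on low counts, and they were fitted with all genes by edgeR's quasi-likelihood test, with calls at a Benjamini-Hochberg adjusted p under 0.05. For unstimulated 3xGrk-/- against WT, 2 members were called higher and 4 lower, where 22.1% of the 12000 genes tested were called higher and 22.7% lower. With LPS, 6 members were higher and 0 lower, beside 24.7% and 24% of 11830 genes. For the LPS response in WT, 1 was higher and 4 lower, beside 29.5% and 30.8% of 12541 genes, and in 3xGrk-/- cells 2 were higher and 2 lower, beside 28.0% and 27.4%. For the difference between the responses, 5 were higher and 0 lower, beside 16.5% and 16.0%. Among the members counted as lower, Cfp without LPS was not called in DESeq2, without WT replicate 1 or without 3xGrk-/- replicate 2. C1qb in the LPS response of 3xGrk-/- cells was not called in DESeq2, with RLE size factors, with no filter on low counts or without any 1 of the 6 libraries other than those of LPS-stimulated WT. Because the members were chosen on these values, nothing is read from the counts.

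The rest of the complement pathway was followed through 53 other genes listed by role. In all, 13 of the 53 had 0 counts in every library, among them the lectins Mbl1 and Mbl2, the protease factor D gene Cfd and the receptor Vsig4, a mark of resident macrophages. Of the 21 genes tested without LPS, 13 were called higher and 4 lower in 3xGrk-/- cells. Their median difference was 0.86 on the log2 scale, beside a median near 0 over all genes tested, of which 22.1% were called higher and 22.7% lower. Of the 23 tested with LPS, 17 rose and 4 fell, and the median was 1.74 against −0.01, with 24.7% and 24% of all genes called. These genes too were listed with earlier results known, and 6 of the 21 and 8 of the 23 passed the filter on low counts through the libraries of a single genotype.

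For the proteases that partner C1q, more reads were counted in 3xGrk-/- cells at both stimulations. C1ra, which encodes C1r, had 10 and 9 counts in unstimulated WT, 53 and 58 in unstimulated 3xGrk-/-, 13 and 16 in LPS-stimulated WT, and 140 and 143 in LPS-stimulated 3xGrk-/- libraries. Its log2 fold change against WT was 2.52 ± 0.302 without and 3.31 ± 0.219 with LPS. C1s1, which encodes C1s, had 7 and 3, 15 and 12, 4 and 6, and 40 and 67 counts, with log2 fold changes of 1.40 ± 0.509 and 3.42 ± 0.383. The call of C1s1 without LPS was lost in DESeq2, without either 3xGrk-/- replicate and without WT replicate 2, where the value was 0.69. These genes and Fcna were picked out after their values were seen, so no p is given. C1ra without LPS and C1s1 at both stimulations passed the filter on low counts only through 3xGrk-/- libraries. Fcna, a ficolin that recognises microbial sugars, had 0 counts in every WT library, 10 and 9 in unstimulated and 13 and 17 in LPS-stimulated 3xGrk-/- libraries, at least 3.08-fold and 5.08-fold higher against a floor of 3 counts per library.

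Of the 10 receptor genes tested, 7 were called higher and 1 lower in 3xGrk-/- cells without LPS, where 22.1% and 22.7% of all genes were. With LPS 9 were higher and 1 lower, beside 24.7% and 24%. C3ar1, the receptor for the C3a fragment of C3, had 122 and 156 counts in unstimulated WT, 669 and 626 in unstimulated 3xGrk-/-, 256 and 299 in LPS-stimulated WT, and 1906 and 2231 in LPS-stimulated 3xGrk-/- libraries. Its log2 fold change was 2.21 ± 0.0908 without LPS (edgeR adjusted p = 2.26e-127) and 2.93 ± 0.0738 with LPS (edgeR adjusted p = 4.29e-18). It rose with LPS in both genotypes, by 1.04 ± 0.0989 in WT and 1.76 ± 0.0616 in 3xGrk-/- cells. C5ar1, the receptor for C5a, had log2 fold changes of 2.33 ± 0.123 and 3.19 ± 0.149 without and with LPS, and the receptor C5ar2 0.07 ± 0.278 (edgeR adjusted p = 0.862) and 1.12 ± 0.447. With LPS, C5ar2 passed the filter only through 3xGrk-/- libraries, and its call was lost in DESeq2, by library size only, without LPS-stimulated WT replicate 1 (0.73) and without either LPS-stimulated 3xGrk-/- replicate. C5ar2 was named after its values were seen.

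The integrin subunits that bind cut C3 on coated particles were also higher. Itgam rose by 1.56 ± 0.0486 without and 2.10 ± 0.0801 with LPS, and its partner Itgb2 by 1.28 ± 0.0354 and 1.74 ± 0.0605, in 3xGrk-/- relative to WT cells. Itgax, which encodes CD11c, differed little without LPS (0.19 ± 0.0336) and by 2.34 ± 0.0727 with LPS. Among surface proteins that have been linked to C1q binding, Lrp1 had 366 and 560 counts in unstimulated WT, 4508 and 3867 in unstimulated 3xGrk-/-, 2337 and 2821 in LPS-stimulated WT, and 5318 and 5672 in LPS-stimulated 3xGrk-/- libraries. Its log2 fold change was 3.17 ± 0.0494 without and 1.13 ± 0.0576 with LPS. Cd93 was higher by 1.57 ± 0.108 and 2.05 ± 0.168, Calr gave 0.05 ± 0.0350 (edgeR adjusted p = 0.232) and 0.75 ± 0.0594, and C1qbp was lower at both, by −0.22 ± 0.0723 and −0.90 ± 0.107. Without LPS, C1qbp was not called in DESeq2, without WT replicate 1 or without 3xGrk-/- replicate 1.

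**Figure D4:**
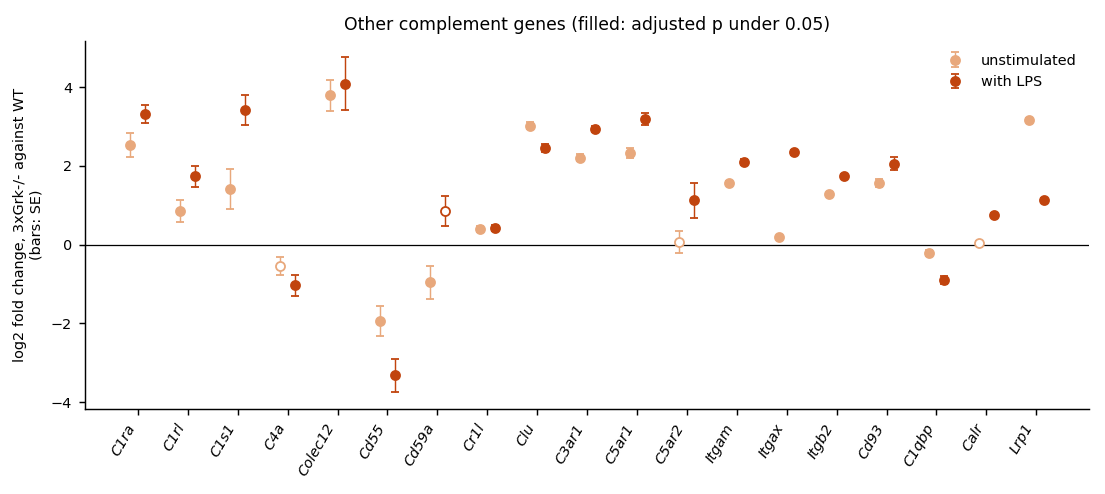
Log2 fold change of 3xGrk-/- against WT (y axis; whiskers, SE) without and with LPS for the 19 other complement genes tested in both comparisons (x axis, ordered by role). Filled points passed the threshold, most of them above 0, and Cd55 and C1qbp lie below 0 in both.

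Among the regulators, Clu, which encodes clusterin, an inhibitor of the terminal complex, had 100 and 138 counts in unstimulated WT and 1130 and 820 in unstimulated 3xGrk-/- libraries. With LPS it had 90 and 113 in WT and 519 and 566 in 3xGrk-/- libraries, so that its log2 fold change was 3.02 ± 0.0851 without (edgeR adjusted p = 8.57e-267) and 2.46 ± 0.109 with LPS (edgeR adjusted p = 5.88e-14). Cr1l, a membrane inhibitor of C3 cleavage, was higher by 0.40 ± 0.0759 and 0.42 ± 0.0866. Cd55, which speeds the decay of the C3-cutting enzymes, had log2 fold changes of −1.94 ± 0.377 without and −3.32 ± 0.420 with LPS. It had 32 and 26 counts in unstimulated WT and 9 and 6 in unstimulated 3xGrk-/- libraries, and with LPS 36 and 38 against 4 and 3. Cd59a, which blocks the terminal complex, and Susd4, a further complement inhibitor, gave −0.96 ± 0.410 and −2.96 ± 0.275 without LPS. No p is given for Cd55, Cd59a and Susd4 here. Cd55 at both stimulations and Cd59a and Susd4 without LPS passed the filter on low counts only through WT libraries, where they were high. The call of Cd59a without LPS was lost in DESeq2, with no filter, under the replicate block, with all 8 libraries in a single fit and with any of the 4 libraries left out. With LPS, Cd59a passed the filter only through 3xGrk-/- libraries and was not called. It was called higher there with no filter (0.88) and under the replicate block (0.86).

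Terminal components had few reads. C7 had 6 and 29 counts in unstimulated WT and 9 and 13 in LPS-stimulated WT libraries and 0 in every 3xGrk-/- library, at least 5.37-fold and 3.53-fold lower in 3xGrk-/- cells against the floor. The former bound was 2.36-fold without WT replicate 2 and 8.38-fold without WT replicate 1. Outside the terminal components, C4a, the copy of C4b, was lower in 3xGrk-/- cells with LPS, by −1.03 ± 0.262 (edgeR adjusted p = 0.00246). Hc, the gene of C5, had 1 and 3 counts in unstimulated and 10 and 12 in LPS-stimulated WT libraries, with a log2 fold change of 2.43 ± 0.706. It had too few reads to be tested without LPS alone and entered the joint fit through the LPS-stimulated libraries, where it was high. In WT, LPS went with a rise of 3 of the 25 other complement genes tested (Hc, C3ar1 and Lrp1) and a fall of 9, beside 29.5% and 30.8% of all genes tested. In 3xGrk-/- cells 7 of the 25 rose, near the share of 28.0% over all genes, and 9 fell, beside 27.4%. Nothing is read from these counts.

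Markers of other cell types moved with the groups too. The summed DC markers stood at 21641 to 21862 CPM in unstimulated WT, 11070 to 11293 in unstimulated 3xGrk-/-, 15227 to 16608 in LPS-stimulated WT and 12782 to 13030 in LPS-stimulated 3xGrk-/- libraries. The antigen presentation genes Cd74, H2-Aa and H2-Ab1 made up 89.3% to 89.6% of the sum in unstimulated WT, and without them it was 2282 to 2311, 2014 to 2024, 4516 to 4720 and 3537 to 3634 CPM in the same order. Of the 10 DC markers, 2 (Flt3 and Ccr7) were called higher and 7 lower in 3xGrk-/- cells without LPS, beside 22.1% and 22.7% of all genes, and 1 (Flt3) higher and 9 lower with LPS, beside 24.7% and 24%. Stromal markers, whose cells can make C3, C4b and Serping1, were near 0 without LPS (1.53 to 3.44 CPM) and reached 14.5 to 25.0 in LPS-stimulated WT and 140.1 to 149.8 in LPS-stimulated 3xGrk-/- libraries. Dcn, with 699 and 698 counts, made up 80.8% to 84.8% of the latter. Without Dcn the sum was 13.5 to 22.7 CPM in LPS-stimulated WT and 22.7 to 26.9 in LPS-stimulated 3xGrk-/- libraries. Of 7 stromal markers tested with LPS 4 were called higher and 1, Lum, lower, beside 24.7% and 24% of all genes. With LPS, Col1a1, Col1a2, Col3a1 and Dcn had at least 10 counts in both libraries of 3xGrk-/- cells only, so nothing is read from this tally. Eosinophil markers ranged from 1084 to 1232 CPM in WT and from 62.9 to 85.6 in 3xGrk-/- libraries, and neutrophil markers from 360.0 to 847.7 and from 548.4 to 1291. Of the 10 neutrophil markers tested without LPS, 1 was called higher and 5 lower in 3xGrk-/- cells, and of the 9 tested with LPS 1 was higher and 6 lower, beside the same shares of all genes. The higher sum was carried by Mmp8, and without it the other neutrophil markers summed to 700.8 to 744.3 CPM in unstimulated WT, 517.8 to 534.9 in unstimulated 3xGrk-/-, 335.1 to 391.6 in LPS-stimulated WT and 186.0 to 202.8 in LPS-stimulated 3xGrk-/- libraries. Mast cell and basophil markers summed to between 32.2 and 51.4 CPM and erythroid markers to between 2.66 and 16.9 CPM. Of 4 mast cell and basophil markers tested without LPS 1 was called higher and 2 lower in 3xGrk-/- cells. With LPS 0 of 4 were higher and 2 lower, beside the same shares of all genes, and Ms4a2 passed the filter there only through WT libraries. The part of these cell types in the levels of the complement genes was not tested.

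The genes whose levels ran most like those of the members over the 8 libraries were ranked by Pearson's r of log2(CPM + 1) among 8847 genes. This is a description over 8 libraries that form 4 groups. Nearest to the mean of the C1q chains were Uhrf1 (r = 0.997), Creld2 (0.994), 4930512J16Rik (0.987), Urb1 (0.985) and Ufsp2 (0.985). Uhrf1, a factor in the upkeep of DNA methylation, had 99.4 CPM in unstimulated WT, 57.6 in unstimulated 3xGrk-/-, 23.8 in LPS-stimulated WT and 52.9 in LPS-stimulated 3xGrk-/- cells, a narrower range than the C1q chains. Nearest to C3 were Tcirg1 (0.998), Tlr6 (0.997) and Fth1 (0.997), the last encoding the ferritin heavy chain. Nearest to Cfb were Acp5 (0.998), Spryd3 (0.997) and Acsl1 (0.997), and nearest to Cfp were Tfeb (0.997), Snx8 (0.997) and Colgalt1 (0.995). For C4b (Ugp2, Rnf139 and Mrpl9, 0.902 to 0.916) and Serping1 (Ythdc1, Lnpep and Cfl2, 0.964 to 0.972) the values rest on a handful of reads.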

How the data were processed

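RNA-seq of 8 BMDC libraries was analysed, 2 per group, with genotype and stimulation taken from the sample labels. The authors aligned reads from a stranded mRNA kit to mm10 with STAR and counted them with featureCounts within snakePipes; the annotation release and strand setting are not given in the sources used here. They deposited whole-number read counts per gene, not normalized, in 2 tables, 1 for each stimulation. Of 47937 IDs, 47224 matched GENCODE M21 without and 39106 with their version; 0.0847% of counts lay on unmatched IDs.

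Computations used R 4.3.3 and edgeR 4.0.16 (TMM, filterByExpr, glmQLFit, glmQLFTest, Benjamini-Hochberg), with each table fitted alone for genotype and all 8 libraries together for LPS responses and their difference. SE was obtained from the log2 fold change without prior count and F's square root, as their ratio. The script was tested on simulated counts. Alternatives included DESeq2 1.42.0, other scalings and filters, and each library left out. The members and lists were chosen with earlier results of these data known. Named beside the members are other complement genes with a mean of at least 10 CPM, called genes where 5 or fewer were called in a direction, and the nearest genes by r; C1ra, C1s1, Fcna and C5ar2 were named after their values were seen. Depth bounds counting precision only, and 3 counts per library were the floor.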

Additional observations from a re-analysis of the deposited data

Results flagged for a closer look

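The effect of genotype on a gene differed between unstimulated and LPS-stimulated cells where the interaction term of the edgeR fit had an adjusted p under 0.05. This held for 5 members and 11 other complement genes, beside 16.5% of all genes with a positive and 16.0% with a negative term. Values are the log2 fold change of 3xGrk-/- against WT with LPS minus that without. Among the members they were 4.38 for C1qa, 4.01 for C1qb, 4.40 for C1qc, 1.07 for C3 and 0.73 for Cfp, given as a description from which nothing is read, since the members were chosen on these libraries. For C1qa, C1qb, C1qc and Cfp the direction itself turned, from lower to higher in 3xGrk-/- cells.

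Among the other complement genes, the genotype difference was more positive with LPS for C3ar1 (0.72), C5ar1 (0.86), Itgam (0.54), Itgax (2.15), Itgb2 (0.46), Calr (0.70), C1s1 (2.02) and Cd59a (1.82), where the last 2 were not called in DESeq2. Without some single libraries the calls of C1s1 (6 of the 8 left out in turn, with 1.13 without unstimulated WT replicate 1) and Cd59a (LPS-stimulated WT replicate 1 or 3xGrk-/- replicate 1) were lost. That of C1s1 was also lost under the replicate block. For 3 further genes the term was negative. The genotype difference was less positive with LPS for Clu (−0.56) and Lrp1 (−2.04), both higher in 3xGrk-/- cells at each stimulation, and more negative for C1qbp (−0.69). Without unstimulated 3xGrk-/- replicate 1 the value of Clu was −0.43 and no longer called. For Lrp1, WT cells rose by 2.53 on the log2 scale with LPS and 3xGrk-/- cells by 0.49. Stimulation coincides with the deposited table, so a difference between the tables cannot be told apart from LPS.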

How the results depend on the processing

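All members kept their direction in both genotype comparisons under every alternative that gave a value. Over the members' values in all 5 comparisons and their alternatives, 425 kept direction and side of the threshold, 22 kept direction but were no longer called, 1 became called and 4 turned sign, all 4 from values that were not called. These were C3 in the LPS response of WT, with −0.19 by library size only, −0.0062 with at least 10 counts in every library and −0.011 to 0.058 over the leave-one-out fits, negative without unstimulated WT replicate 2, and C1qc in the LPS response of 3xGrk-/- cells, with −0.17 by library size only. Of these, only the first was itself past the threshold. Among the named other complement genes 960 values kept direction and side, 94 were no longer called, 7 became called and 4 turned sign: Calr without LPS (−0.033 by library size only) and C5ar2 without LPS (−0.014 by library size only, and −0.199 to 0.304 over the leave-one-out fits, negative without WT replicate 2 and without 3xGrk-/- replicate 1). The cause was not tested. The call of C1qb in the LPS response of 3xGrk-/- cells was lost in DESeq2, with RLE size factors, with no filter, under the replicate block and in 6 of the leave-one-out fits.

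Counts below are given in the order genotype without LPS, genotype with LPS, LPS in WT, LPS in 3xGrk-/-, interaction. A biological coefficient of variation fixed at 0.4 (the libraries gave 0.0306, 0.0573 and 0.0463) left 448, 782, 1110, 850 and 72 genes called of 5369, 5754, 7561, 6945 and 4070. It left 3 members without LPS, 1 in the LPS response of 3xGrk-/- cells and 3 in the interaction, and 7, 12, 3, 3 and 0 other complement genes. Asking for a log2 fold change of at least 1 left 1444, 1984, 2700, 2373 and 1375 genes, and for LPS in 3xGrk-/- cells 2 members and 9 other complement genes, with 4 of the latter in the interaction. DESeq2 called 3086 genes without LPS and 2643 in the interaction. With at least 10 counts in every library, 9 other complement genes were called for LPS in 3xGrk-/- cells.

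Replicate numbers are shared by the groups, but same-numbered libraries did not deviate together (correlations from −0.0299 to 0.0435), so they do not pair the libraries. With the replicate block 5292, 5654, 7438, 6793 and 3884 genes were called, and of the members only C1qb lost its call, in the LPS response of 3xGrk-/- cells. Ranking by Spearman's rho in place of Pearson's r kept 0 of the 5 genes nearest to the C1q chains, 1 of 3 for C3 and 0 of 3 for Cfb and Cfp.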
